A study of Mus musculus with 11 samples.

Results

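The genes described here are 10 secreted signals of the WNT, R-spondin and BMP families in mouse gastric corpus mucosa. They are the WNT ligands Wnt2b, Wnt4 and Wnt5a, the R-spondins Rspo1, Rspo2 and Rspo3, the BMP ligands Bmp2, Bmp4 and Bmp7, and the BMP antagonist Grem1. The members were listed by name, and all 10 were found among the 34866 genes of the deposited table. The corpus is the acid- and pepsinogen-secreting region of the stomach. Its mucosa was profiled by bulk RNA sequencing in 11 libraries. There were 2 wild-type control libraries and 3 each of the mouse lines GIF-DTR, ATP4B-DTR and GIF/ATP4B-DTR, the last carrying both transgenes. DTR is the diphtheria toxin receptor, which makes mouse cells sensitive to the toxin. The lines were built to remove parietal cells (Atp4b encodes a subunit of their acid pump), chief cells (Gif encodes intrinsic factor, made by chief cells in the mouse) or both types. Both genes mark epithelial cells, and stromal cells were not the cells the lines were built to remove. Toxin dose, time after toxin, age and sex are not given in the sources used here, nor whether the control animals received toxin. No label says whether libraries came from separate animals, so a p-value measures the spread between these libraries only.

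WNT ligands bind Frizzled receptors with the co-receptors Lrp5 and Lrp6 and keep beta-catenin from being degraded. R-spondins bind the Lgr receptors and prolong Frizzled signalling by removing the ubiquitin ligases Rnf43 and Znrf3. BMPs bind paired serine/threonine kinase receptors that phosphorylate SMAD proteins, and Grem1 is a secreted protein that binds BMP2, BMP4 and BMP7 and keeps them from their receptors. In the gut, fibroblasts and smooth muscle below and around the glands are a main source of R-spondins, Wnt2b, Grem1 and Bmp4, while Wnt4 and Bmp7 can also be made by epithelial cells.

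Library totals lay between 20689262 and 27946423 counts. Levels are given as CPM, counts scaled to a common library size after TMM correction, and 3 counts corresponded to between 0.107 and 0.166 CPM. As a check of the lines, Atp4b lay between 4365 and 4786 CPM in control and between 2136 and 3470 CPM in GIF-DTR, against 475 to 683 CPM where ATP4B-DTR was present alone and 158 to 468 CPM in GIF/ATP4B-DTR. Gif lay between 702 and 2303 CPM in control and between 332 and 824 CPM in ATP4B-DTR, against 65.5 to 196 CPM where GIF-DTR was present alone and 72.3 to 218 CPM in GIF/ATP4B-DTR. The libraries differed in stroma within their groups. A list of 10 fibroblast genes (Pdgfra, Pdgfrb, Col1a1, Col1a2, Col3a1, Dcn, Lum, Thy1, Fbln1 and Vim) summed to 140 CPM in control 1 and 641 CPM in control 2. Its sums were 314, 196 and 381 CPM for ATP4B-DTR 1, 2 and 3, then 845, 280 and 401 CPM for the GIF-DTR libraries and 138, 338 and 181 CPM for those of GIF/ATP4B-DTR in the same order. No gene of the fibroblast, smooth muscle or endothelial list was at 0 in any library, so stromal RNA was present in all 11. In bulk tissue, fewer cells of a type and less RNA per cell cannot be told apart. Y-linked genes were read in both controls, in ATP4B-DTR 1 and in all 3 GIF/ATP4B-DTR libraries, and were near 0 in the other 5. When GIF-DTR is set against control or GIF/ATP4B-DTR, genotype and the difference in Y-linked reads therefore cannot be told apart.

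Promoter sequence from RefSeq (GRCm38.p6) was matched for 5 of the 10 genes, namely Wnt2b, Wnt4, Rspo1, Bmp4 and Grem1. Bmp4 and Grem1 are shown because their levels moved together across the libraries, and Wnt4 because its level did not follow theirs. Each is printed 5′ to 3′ on the gene's strand and ends before the earliest annotated transcript start, which for Wnt4 leaves 104 bases of the window. Capitals mark matches, on either strand, of 4 motifs of 6 letters: TATAAA, the GC box GGGCGG, the TCF-type core CTTTGA and the SMAD-type GGCGCC.
Bmp4, chr14:46390670-46390919, minus strand: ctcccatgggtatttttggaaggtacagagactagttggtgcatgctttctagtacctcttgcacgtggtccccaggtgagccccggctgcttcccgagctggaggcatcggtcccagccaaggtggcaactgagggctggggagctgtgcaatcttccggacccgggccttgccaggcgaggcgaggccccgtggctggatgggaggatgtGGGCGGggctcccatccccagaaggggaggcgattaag
Grem1, chr2:113758649-113758898, minus strand: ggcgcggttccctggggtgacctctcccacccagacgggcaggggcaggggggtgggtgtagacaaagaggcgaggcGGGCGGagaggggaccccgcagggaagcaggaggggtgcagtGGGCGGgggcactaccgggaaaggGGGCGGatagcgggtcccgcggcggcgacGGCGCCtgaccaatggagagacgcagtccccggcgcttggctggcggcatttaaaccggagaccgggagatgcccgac
Wnt4, chr4:137277385-137277488, plus strand: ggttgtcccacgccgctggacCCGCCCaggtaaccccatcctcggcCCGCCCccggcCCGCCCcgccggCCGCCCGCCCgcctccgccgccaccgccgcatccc
In the 250 bases before the RefSeq start, GGGCGG was found at 1 position for Bmp4, at 3 for Grem1 and at 8 for Wnt4, some of which overlap. It was present in 32.7% of all 32851 RefSeq promoter windows of that length. GGCGCC was found at 1 position for Grem1, at 2 for Wnt4 and at 0 for Bmp4, against 9.6% of windows. TATAAA and CTTTGA were in none of the 5 members' windows, against 12.4% and 13.8% of all windows. These are matches of letters, and binding was not measured.

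Bmp2 was by far the most abundant of the 10 transcripts. Per kilobase of the longest annotated coding transcript it averaged 26.8 ± 8.02 CPM (SD over 11 libraries), and its lowest library (17.1) stood above the highest library of every other member (4.38, Bmp4 in control 2). Bmp7 (2.27 ± 0.597 CPM per kb), Wnt4 (2.00 ± 0.644) and Bmp4 (1.51 ± 1.34) came next, and neighbours in that order lay within each other's spread. Wnt5a (0.871 ± 0.555), Rspo1 (0.739 ± 0.487), Rspo3 (0.690 ± 0.652) and Grem1 (0.675 ± 0.460) formed a group without separation. Wnt2b averaged 0.248 ± 0.260 CPM per kb and Rspo2 0.0553 ± 0.0489. The spread separated the genes as clearly as the level did. Across the libraries the highest value was 2.35 times the lowest for Bmp7, 2.58 times for Bmp2 and 3.02 times for Wnt4, against 6.76 times for Rspo1, 7.98 times for Wnt5a, 9.09 times for Grem1, 12.6 times for Bmp4, 13.1 times for Rspo3 and 19.1 times for Wnt2b.

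**Figure D1:**
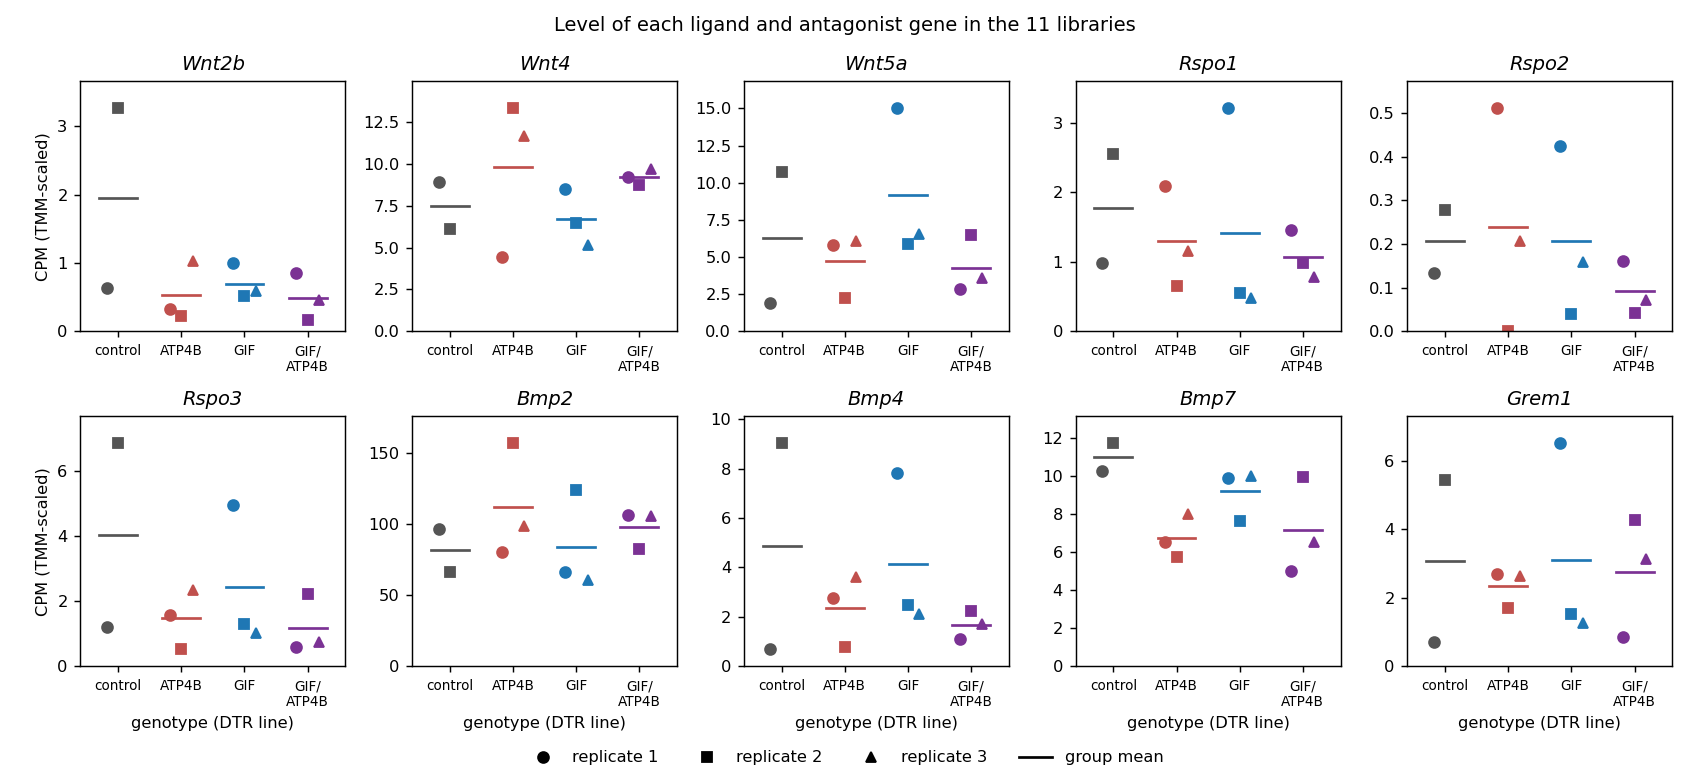
Each panel plots 1 gene, with CPM on a linear axis from 0 and the 4 genotypes along the horizontal axis. Points are libraries and lines are group means (n = 2 or 3). In the panels of Wnt5a, Rspo3, Bmp4 and Grem1 the 2 highest points are control 2 and GIF-DTR 1, while Bmp2 and Wnt4 are highest in ATP4B-DTR 2.

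Among the WNT ligands, Wnt5a (chromosome 14, 28504750 to 28527448, plus strand) signals mainly through receptors such as Ror2 and marks subepithelial fibroblasts in the gut. It stood at 1.89 and 10.7 CPM in control. The ATP4B-DTR libraries read 5.82, 2.24 and 6.09 CPM, those of GIF-DTR read 15.0, 5.90 and 6.59 CPM, and those of GIF/ATP4B-DTR read 2.82, 6.50 and 3.56 CPM. The controls were at nearly opposite ends of the range, and every library of the lines except GIF-DTR 1 lay between them. Against control the difference was −0.41 ± 0.71 log2 units (SE) for ATP4B-DTR, 0.55 ± 0.72 for GIF-DTR and −0.55 ± 0.71 for GIF/ATP4B-DTR. Without control 2 the 3 values were 1.32, 2.27 and 1.18, and without control 1 they were −1.18, −0.22 and −1.32.

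Wnt4 (chromosome 4, 137277489 to 137299726, plus strand), a ligand best known from kidney and gonad development, showed another order of libraries. Its levels were 8.89 and 6.10 CPM in control. Levels of 4.42, 13.3 and 11.6 CPM were found for ATP4B-DTR, 8.51, 6.45 and 5.16 CPM for GIF-DTR, and 9.20, 8.72 and 9.69 CPM for GIF/ATP4B-DTR. The ATP4B-DTR libraries spanned the whole range, whereas the GIF/ATP4B-DTR libraries were tight and all stood above those of GIF-DTR. That last difference was 0.46 ± 0.35 log2 units, with an edgeR adjusted p of 0.496, and 26.4% of all tested genes had no overlap between these groups.

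Wnt2b (chromosome 3, 104945272 to 104961921, minus strand), which activates beta-catenin and is made by gut stroma, was scarce. It stood at 0.629 and 3.27 CPM in control. The ATP4B-DTR libraries read 0.326, 0.219 and 1.04 CPM, those of GIF-DTR read 0.993, 0.511 and 0.595 CPM, and those of GIF/ATP4B-DTR read 0.847, 0.171 and 0.463 CPM. Control 2 alone was more than 3 CPM, with 59 counts, while control 1 lay among the lines. The difference was −1.86 ± 0.85 log2 units in ATP4B-DTR (edgeR adjusted p = 0.142), −1.47 ± 0.84 for GIF-DTR (0.259) and −1.96 ± 0.85 for GIF/ATP4B-DTR (0.0953). With control 2 left out these values were −0.25, 0.14 and −0.34. With control 1 left out they were −2.61, −2.22 and −2.71, and the last passed the threshold (edgeR adjusted p = 0.0366).

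Of the R-spondins, Rspo3 (chromosome 10, 29452416 to 29535867, minus strand) is the form that myofibroblasts and smooth muscle below gastric glands are known to supply. It stood at 1.21 and 6.87 CPM in control. Levels of 1.58, 0.527 and 2.36 CPM were found for ATP4B-DTR, 4.97, 1.30 and 1.03 CPM for GIF-DTR, and 0.605, 2.22 and 0.748 CPM for GIF/ATP4B-DTR. Control 2 was highest and GIF-DTR 1 next, and control 1 lay within the range of each line. The difference was −1.43 ± 0.91 log2 units for ATP4B-DTR, −0.73 ± 0.91 for GIF-DTR and −1.76 ± 0.92 for GIF/ATP4B-DTR (edgeR adjusted p = 0.297, 0.637 and 0.164). Omitting control 2 moved the Rspo3 values to 0.29, 0.99 and −0.04, and omitting control 1 moved them to −2.20, −1.50 and −2.53.

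Rspo1 (chromosome 4, 124986430 to 125009099, plus strand), which acts on the same Lgr receptors, was 0.988 and 2.55 CPM in control. The ATP4B-DTR libraries read 2.09, 0.658 and 1.16 CPM, those of GIF-DTR read 3.22, 0.551 and 0.476 CPM, and those of GIF/ATP4B-DTR read 1.45, 0.983 and 0.784 CPM. All 3 lines overlapped the controls. Rspo2 (chromosome 15, 43020794 to 43170826, minus strand) was close to the limit of detection. It had 3 and 5 counts in the controls, 11, 0 and 5 in ATP4B-DTR, 9, 1 and 4 in GIF-DTR, and 4, 1 and 2 in GIF/ATP4B-DTR. It was left out of the tests by the low-count filter. Without that filter its difference from control was 0.22 ± 1.25 log2 units for ATP4B-DTR, 0.00 ± 1.34 for GIF-DTR and −1.13 ± 1.30 for GIF/ATP4B-DTR (edgeR adjusted p = 0.994, 1.0 and 0.604), with errors larger than the differences.

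Among the BMP ligands, Bmp4 (chromosome 14, 46383520 to 46390669, minus strand), the mesenchymal BMP of the gut, had the largest ratio between the controls. It stood at 0.718 and 9.04 CPM in control. Levels of 2.75, 0.790 and 3.60 CPM were found for ATP4B-DTR, 7.80, 2.48 and 2.10 CPM for GIF-DTR, and 1.09, 2.22 and 1.71 CPM for GIF/ATP4B-DTR. All 9 libraries of the lines lay between the 2 controls. The difference was −1.02 ± 0.93 log2 units for ATP4B-DTR, −0.24 ± 0.93 for GIF-DTR and −1.53 ± 0.93 for GIF/ATP4B-DTR. With control 2 left out the 3 values were 1.72, 2.51 and 1.21, and with control 1 left out they were −1.92, −1.13 and −2.43, so the sign of the Bmp4 difference followed the control used. The last of these passed the threshold (edgeR adjusted p = 0.0421 without control 1).

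Bmp2 (chromosome 2, 133552159 to 133562885, plus strand) is close in sequence to Bmp4 and binds the same receptors. It stood at 96.7 and 66.5 CPM in control. The ATP4B-DTR libraries read 80.4, 157 and 98.7 CPM, those of GIF-DTR read 66.7, 124 and 60.9 CPM, and those of GIF/ATP4B-DTR read 107, 82.6 and 106 CPM. Each line overlapped the controls. Bmp2 was lower in control 2 than in control 1, the opposite order to Bmp4. The difference was 0.46 ± 0.35 log2 units for ATP4B-DTR, 0.04 ± 0.35 for GIF-DTR and 0.27 ± 0.35 for GIF/ATP4B-DTR, and the approximate 95% intervals ran from −0.32 to 1.24, from −0.73 to 0.81 and from −0.51 to 1.04.

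Bmp7 (chromosome 2, 172868012 to 172940321, minus strand), a BMP made by epithelia as well as mesenchyme, was the member with matching controls. It stood at 10.3 and 11.8 CPM in control. Levels of 6.56, 5.75 and 7.99 CPM were found for ATP4B-DTR, 9.89, 7.67 and 10.04 CPM for GIF-DTR, and 5.0, 9.96 and 6.55 CPM for GIF/ATP4B-DTR. Both controls were above all 9 libraries of the lines. The difference was −0.70 ± 0.27 log2 units for ATP4B-DTR, −0.26 ± 0.28 for GIF-DTR and −0.62 ± 0.27 for GIF/ATP4B-DTR (edgeR adjusted p = 0.0919, 0.570 and 0.103). Groups without overlap were common against 2 controls: 48.5%, 48.0% and 56.3% of tested genes had none in the 3 comparisons. These shares count either direction and each line by itself, not all 9 libraries at once. Without GIF/ATP4B-DTR 2, the highest library of its group, Bmp7 passed in ATP4B-DTR at −0.70 (edgeR adjusted p = 0.0453) and in GIF/ATP4B-DTR at −0.93 (0.0198). The Bmp7 value was negative under every alternative tried in ATP4B-DTR and GIF/ATP4B-DTR.

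Grem1 (chromosome 2, 113746164 to 113758646, minus strand) stood at 0.718 and 5.43 CPM in control. The ATP4B-DTR libraries read 2.70, 1.71 and 2.65 CPM, those of GIF-DTR read 6.53, 1.53 and 1.27 CPM, and those of GIF/ATP4B-DTR read 0.847, 4.28 and 3.13 CPM. All 3 lines overlapped the controls. The difference was −0.37 ± 0.92 log2 units for ATP4B-DTR, 0.02 ± 0.92 for GIF-DTR and −0.15 ± 0.92 for GIF/ATP4B-DTR. As for Bmp4, the sign followed the control used, with Grem1 at 1.70, 2.10 and 1.93 without control 2 and at −1.20, −0.81 and −0.98 without control 1. The level of Grem1 as a percentage of that of Bmp4, in CPM, was 100 and 60.1% in control. It was 98.3, 217 and 73.6% in ATP4B-DTR, 83.6, 61.9 and 60.4% in GIF-DTR, and 77.8, 192 and 183% in GIF/ATP4B-DTR, and no line separated from control.

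None of the 9 tested members passed an adjusted p of 0.05 in any of the 6 comparisons between genotypes or in the interaction of the 2 transgenes (edgeR quasi-likelihood test, Benjamini-Hochberg adjustment over 14889 genes). Of all genes tested, 21.6% passed when ATP4B-DTR was set against control, 16.8% for GIF-DTR and 33.6% for GIF/ATP4B-DTR. Between lines, 0.49% passed for GIF-DTR against ATP4B-DTR (0.403% higher and 0.0873% lower), 0.0% for GIF/ATP4B-DTR against ATP4B-DTR and 2.53% for GIF/ATP4B-DTR against GIF-DTR (0.336% higher and 2.19% lower), and 0.651% passed in the interaction. DESeq2 also called 0 members in each. At an unadjusted p under 0.05, 2 members, Wnt2b and Bmp7, passed for ATP4B-DTR and likewise for GIF/ATP4B-DTR, both lower, and 0 in GIF-DTR, in the comparisons of lines or in the interaction. These 2 of 9 are 22.2% of the members, below the 34.8% (ATP4B-DTR) and 44.5% (GIF/ATP4B-DTR) of all tested genes at that level, and for GIF-DTR the share over all genes was 31.4%. Between lines the shares over all genes were 9.81% for GIF-DTR against ATP4B-DTR, 10.4% for GIF/ATP4B-DTR against ATP4B-DTR and 18.0% for GIF/ATP4B-DTR against GIF-DTR, and in the interaction 15.6%. The 2 comparisons that name Wnt2b and Bmp7 share their control libraries. The median difference of the 9 members was −0.43 log2 units for ATP4B-DTR, −0.24 for GIF-DTR and −0.62 for GIF/ATP4B-DTR, against medians of −0.01, −0.01 and −0.04 over all tested genes. These medians followed the control used: without control 2 they were 0.29, 0.50 and 0.05, and without control 1 they were −1.18, −0.81 and −1.24, while those over all genes stayed between 0.01 and 0.04. The intervals were wide for the genes that differed between the controls. For Rspo3 in GIF/ATP4B-DTR the approximate 95% interval ran from −3.79 to 0.27 log2 units, and for Grem1 it ran from −2.18 to 1.88.

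**Figure D2:**
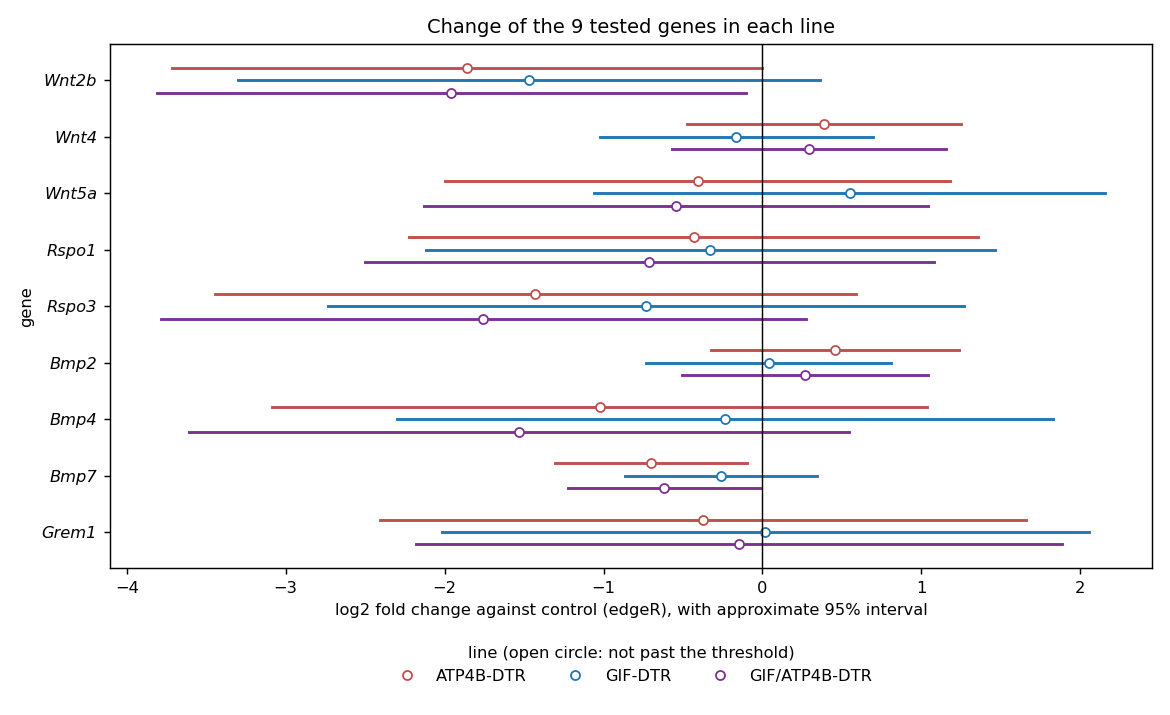
Open circles give the log2 fold change of each of the 9 tested genes against control in the 3 lines, and bars give approximate 95% intervals from the edgeR fit. All points are open because none passed the threshold. The intervals of Bmp2, Bmp7 and Wnt4 are the narrowest, and those of Bmp4, Grem1, Rspo3 and Wnt2b reach about 2 log2 units to either side of their centre.

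Between the lines themselves no member passed the test either. In GIF-DTR against ATP4B-DTR they ran from −0.55 ± 0.35 log2 units for Wnt4 to 0.96 ± 0.64 for Wnt5a. In GIF/ATP4B-DTR against ATP4B-DTR they ran from −0.51 ± 0.86 for Bmp4 to 0.22 ± 0.82 for Grem1. In GIF/ATP4B-DTR against GIF-DTR they ran from −1.30 ± 0.86 for Bmp4 to 0.46 ± 0.35 for Wnt4, with Wnt5a at −1.09 ± 0.64. The smallest edgeR adjusted p among these was 0.386, for Wnt5a in the last comparison.

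The members did not all share 1 order of libraries. Wnt5a, Rspo1, Rspo3, Bmp4 and Grem1 had control 2 and GIF-DTR 1 as their 2 highest libraries, the same 2 that were highest in the fibroblast and smooth muscle lists. Wnt2b was highest in control 2 but had GIF-DTR 1 at rank 3, at 1.80 times the mean of GIF-DTR 2 and 3. Bmp7 had control 2 and control 1 at ranks 1 and 2 and GIF-DTR 1 at rank 5. Rspo2 was highest in ATP4B-DTR 1. Control 2 stood above control 1 by 12.6 times for Bmp4, 7.56 times for Grem1, 5.67 times for both Wnt5a and Rspo3, 5.20 times for Wnt2b and 2.58 times for Rspo1. The summed lists differed in the same direction, by 4.58 times for fibroblast, 5.82 times for smooth muscle and 10.4 times for endothelial genes, and by 9.49 times for the fibroblast list without Fbln1, while the epithelial list (Epcam, Krt8, Krt18, Cdh1 and Cldn18) stood at 0.689 times. Fbln1, a matrix gene of that list, was 81.4 and 84.6 CPM in the controls and made up 58.1% of the fibroblast sum of control 1. Bmp2 and Wnt4 went with the epithelial list in this pair of libraries, at 0.688 and 0.686 times, and Bmp7 differed least, at 1.14 times. Within the GIF-DTR group, library 1 exceeded the mean of the other 2 by 6.27 times for Rspo1, 4.66 times for Grem1, 4.26 times for Rspo3, 3.41 times for Bmp4 and 2.41 times for Wnt5a, beside 2.48 times for the fibroblast list, 4.50 times for smooth muscle and 2.32 times for endothelial genes. There Wnt4 and Bmp2 parted, at 1.47 and 0.721 times, with the epithelial list at 1.01 times. For Wnt5a the highest and the lowest library within each of the 4 genotypes were the highest and lowest in fibroblast genes.

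**Figure D3:**
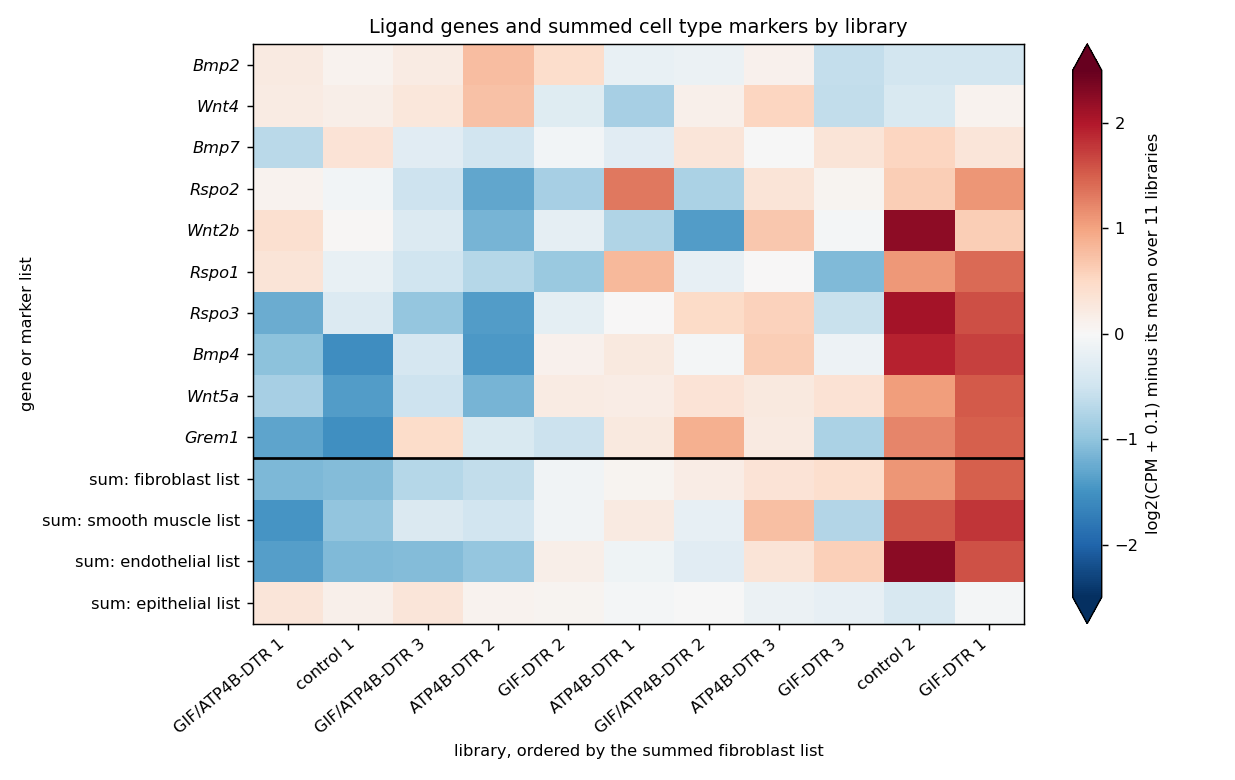
Rows are the 10 genes and 4 summed marker lists, columns are the 11 libraries ordered by the fibroblast list, and colour gives log2(CPM + 0.1) minus the row mean, red above and blue below it. The rows of Wnt5a, Bmp4, Rspo3 and Grem1 turn red in the 2 right-hand columns, control 2 and GIF-DTR 1, as the fibroblast, smooth muscle and endothelial rows do. Bmp2 and Wnt4 are pale or blue there.

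Across the 11 libraries, which share depth and tissue makeup within each point, the log2 level of Wnt5a correlated with that of Bmp4 at a Pearson r of 0.95, and Rspo3 with Bmp4 at 0.90. Grem1 correlated with Bmp4 at 0.81 and with Wnt5a at 0.78. Bmp2 ran against them, at −0.65 with Bmp4, −0.67 with Rspo3 and −0.71 with Wnt5a, and correlated at 0.62 with Wnt4. These values describe 11 libraries of 4 genotypes that include both extreme ones. The genes most like Wnt5a, among those of at least 8 CPM, were Sparc (r = 0.984), Fstl1 (0.981) and Eln (0.975). For Bmp4 they were Col6a1 (0.979), Pdgfra (0.969) and Sfrp1 (0.968), and for Rspo3 they were Gpx3 (0.959), Ppp1r12b (0.949) and Mcam (0.944). For Grem1 they were Gja1 (0.951), Mylk (0.905) and Itga5 (0.903). Sparc, Eln and Col6a1 encode matrix proteins, and Mylk encodes the myosin light chain kinase of contractile cells. The genes most like Bmp2 were Socs3 (0.956), an inhibitor of cytokine signalling, Ppfibp1 (0.930) and Ankdd1b (0.925). For Wnt4 they were Grk2 (0.857), Strn3 (0.839) and Eea1 (0.821), for Bmp7 Zfp60 (0.910), Tanc2 (0.908) and Scrn3 (0.903), for Rspo1 Fxyd6 (0.881), C3 (0.862) and Itgb1 (0.862), and for Wnt2b Usp54 (0.881), Agap1 (0.861) and Xpc (0.850).

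Set against the summed fibroblast list of the same library, Wnt5a, Rspo1, Rspo3, Bmp4 and Grem1 differed by 1.24 to 2.75 times between the controls. With Fbln1 taken out of the list they differed by 1.26 to 3.68 times, and Rspo1 was then farther apart than in CPM (2.58 times). Both measures were chosen after the levels were seen and are given with no test. Wnt5a was 1.35 and 1.67% of the full fibroblast sum for the controls, 1.14 to 1.85% in ATP4B-DTR and 1.64 to 2.11% in GIF-DTR, which overlapped them. The GIF/ATP4B-DTR libraries (1.92 to 2.05%) were above both controls, as held for 8.93% of all genes, but without Fbln1 they lay between the controls (1.92 and 3.22%). Rspo3 was 0.866 and 1.07% in the controls. It was 0.504, 0.268 and 0.620% in ATP4B-DTR, 0.588, 0.463 and 0.257% in GIF-DTR, and 0.439, 0.657 and 0.412% in GIF/ATP4B-DTR. All 9 libraries of the lines were below both controls, as was the case for 2.44% of all tested genes on this measure. Set against the smooth muscle list, GIF/ATP4B-DTR 2 was not below the controls. Its Rspo3 level was 2.22 CPM beside a smooth muscle sum of 662 CPM. The controls had 1.21 CPM beside 386 CPM and 6.87 CPM beside 2247 CPM. Without Fbln1 the Rspo3 controls were 2.07 and 1.23% and the lines ran from 0.297 to 0.747%, and 2.94% of genes then had all 9 libraries below the controls. Wnt2b was 0.449 and 0.510% in the controls, above all libraries of ATP4B-DTR (0.104 to 0.272%) and GIF-DTR (0.118 to 0.182%), while GIF/ATP4B-DTR ran from 0.0505 to 0.614%. For Rspo1 the GIF-DTR libraries (0.119 to 0.381%) were below both controls (0.706 and 0.398%), and the other 2 lines overlapped them. Over all genes, 5.38% were below both controls in every ATP4B-DTR library and 7.17% in every GIF-DTR library. Bmp4 was 0.513 and 1.41% in the controls, a range that held 8 of the 9 other libraries, the exception being ATP4B-DTR 2 at 0.403%. Without Fbln1 its controls were 1.23 and 1.62%, and all 9 other libraries (0.606 to 1.21%) lay below them. Grem1 ran from 0.317 to 0.772% in GIF-DTR and from 0.614 to 1.73% in GIF/ATP4B-DTR, with controls at 0.513 and 0.847%.

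With the log2 fibroblast sum as a covariate in the edgeR fit, Rspo3 stood at −1.03 log2 units in ATP4B-DTR (edgeR adjusted p = 0.0799), −1.36 for GIF-DTR (0.0397) and −0.75 for GIF/ATP4B-DTR (0.181). The middle value passed, and 1 other member, Bmp7 in ATP4B-DTR (−0.70, edgeR adjusted p = 0.0437), passed in the same fit, in which 25.4, 18.0 and 35.7% of all genes passed in the 3 lines. With Fbln1 taken out of the covariate, Rspo3 passed in each line, at −1.44, −1.70 and −1.36 log2 units (edgeR adjusted p = 0.0257, 0.0246 and 0.0222), as did Bmp7 in ATP4B-DTR (−0.77, 0.0350), with 25.9, 16.7 and 38.3% of all genes. Both covariates were added after the data were seen, so these adjusted p-values come from fits chosen on the same values. The Rspo3 calls thus depend on the covariate and on the genes summed in it, and without a covariate none was made. A covariate estimated from the same libraries does not tell a change in cell number from a change in RNA per cell.

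**Figure D4:**
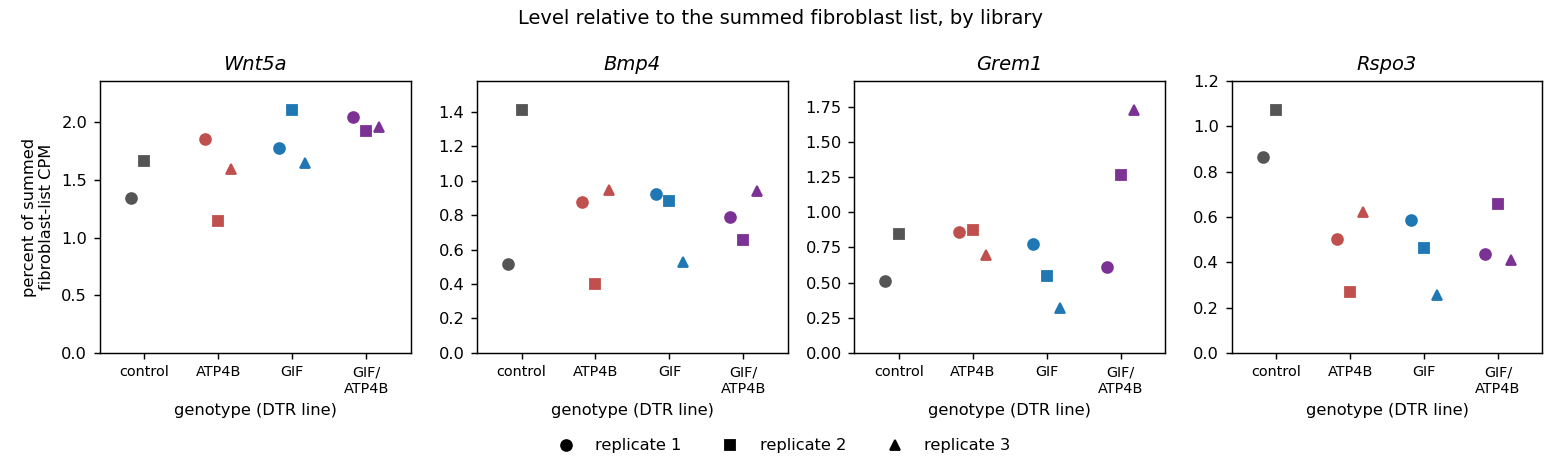
The level of Wnt5a, Bmp4, Grem1 and Rspo3 is plotted as a percentage of the summed CPM of the 10 fibroblast genes of the same library, on linear axes from 0, with 1 point per library. In the Rspo3 panel the controls (0.866 and 1.07%) lie above the 9 other points (0.257 to 0.657%), an arrangement found for 2.44% of all tested genes. In the Wnt5a panel GIF/ATP4B-DTR lies above both controls and the other lines overlap them, and in the Bmp4 panel each line overlaps them.

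The other genes of both pathways were listed by function and held 98 names, of which 72 were tested. Against control, 5 were higher and 8 lower in ATP4B-DTR, 4 and 4 in GIF-DTR, and 10 and 14 in GIF/ATP4B-DTR. These are 18.1, 11.1 and 33.3% of those tested, close to or below the 21.6, 16.8 and 33.6% over all genes.

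Receptors that bind the WNT and R-spondin members included 2 that fell in all 3 lines. Fzd4, a Frizzled receptor, was 177 ± 21.4 CPM (SD, n = 2) for the controls, against 83.5 ± 4.62 CPM for ATP4B-DTR, 97.7 ± 6.45 for GIF-DTR and 69.1 ± 2.27 for GIF/ATP4B-DTR (n = 3 each). It fell by 1.08, 0.86 and 1.36 log2 units, with edgeR adjusted p-values of 0.000336, 0.00175 and 3.03e-05, and passed under every alternative tried. The summed parietal cell list had the same order of groups, from 15826 to 16824 CPM in control, 2976 to 4274 CPM for ATP4B-DTR, 7139 to 9310 CPM for GIF-DTR and 938 to 2355 CPM for GIF/ATP4B-DTR, and its part in the Fzd4 difference was not tested. Lrp6, the WNT co-receptor, fell by 0.56, 0.57 and 0.60 log2 units (edgeR adjusted p = 0.0131, 0.0165 and 0.00550), and without control 1 it passed in GIF/ATP4B-DTR only. Of the 18 tested receptors, 11.1, 11.1 and 27.8% passed in the 3 lines, below the 21.6, 16.8 and 33.6% of all genes. Over all genes, 9.39, 6.82 and 15.4% were lower. In all, 2 of 18 tested receptors were lower and 0 higher in ATP4B-DTR and again in GIF-DTR, and 4 lower and 1 higher in GIF/ATP4B-DTR. The further genes of the last count were Ror1 (−1.80 ± 0.46) and Fzd8 (−1.15 ± 0.35), which were lost without control 2, and Lgr4, the widely expressed R-spondin receptor. Lgr4 rose by 0.64 ± 0.20 log2 units and was likewise lost without control 2 and without GIF/ATP4B-DTR 1. Fzd8 was also lost without GIF/ATP4B-DTR 1 and without GIF/ATP4B-DTR 2. Lgr4 fell outside the naming rule and is named because the count is small.

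Other WNT ligands were scarce, with 7 of 17 tested. Wnt9a, a ligand known from joint and liver development, was 3.82 ± 0.322 CPM (SD, n = 2) in control and fell by 2.40 log2 units for ATP4B-DTR and by 2.32 for GIF/ATP4B-DTR (edgeR adjusted p = 0.0324 and 0.0254). Neither call held without control 1 or without control 2, nor without any 1 of the 3 ATP4B-DTR libraries for the first, or GIF/ATP4B-DTR 1 or 2 for the second. Wnt10b, a beta-catenin-activating ligand, had 0 counts in both controls, 1, 2 and 10 in ATP4B-DTR, 9, 19 and 12 in GIF-DTR, and 6, 35 and 49 in GIF/ATP4B-DTR. With 3 counts per control library as the floor it was at least 3.65-fold higher in GIF-DTR (edgeR adjusted p = 0.0365) and at least 7.72-fold higher in GIF/ATP4B-DTR (0.00803). The GIF-DTR call was lost when either control or any GIF-DTR library was left out. Wnt16 fell by 2.27 ± 0.66 log2 units in GIF/ATP4B-DTR (edgeR adjusted p = 0.0206), from 1.30 to 0.267 CPM, and was lost without control 2, GIF/ATP4B-DTR 2 or GIF/ATP4B-DTR 3. Wls, the carrier that all WNT ligands need for secretion, was 108 ± 2.78 CPM in control and fell by 0.52 ± 0.17 log2 units in ATP4B-DTR (edgeR adjusted p = 0.0459) and 0.65 ± 0.17 in GIF/ATP4B-DTR (0.0115). Both calls were lost without control 1, and the first also without control 2, ATP4B-DTR 2, ATP4B-DTR 3, GIF-DTR 2 or GIF-DTR 3.

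Of 7 tested secreted WNT antagonists, 1 passed, Notum, an enzyme that removes the lipid of WNT ligands and is itself induced by WNT signalling. It had 3 counts in all in the controls against 72 for ATP4B-DTR and 68 for GIF/ATP4B-DTR. The ratio of scaled counts was 14.1 (95% exact counting interval 4.65 to 70.2) and 11.98 (3.93 to 59.5), with edgeR adjusted p-values of 0.0237 and 0.0202. Both calls were lost without control 1, and the second also without GIF/ATP4B-DTR 1.

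WNT/beta-catenin target genes rose where they passed the test. Of 11 tested, 4 were higher for ATP4B-DTR, 3 for GIF-DTR and 5 for GIF/ATP4B-DTR, and 0 were lower in each. Over all genes, 12.2, 9.97 and 18.2% were higher in the same comparisons. The median log2 difference of the list was 1.07, 1.27 and 1.50 log2 units. Ascl2, a stem cell transcription factor of the intestine, was 0.284 ± 0.147 CPM for the controls (n = 2), with line means of 2.14 ± 1.21, 3.63 ± 1.32 and 5.24 ± 3.25 CPM (n = 3 each, ATP4B-DTR first and GIF/ATP4B-DTR last). It rose by 2.92, 3.68 and 4.21 log2 units (edgeR adjusted p = 0.0165, 0.00845 and 0.00164). Tcf7, a beta-catenin partner that is also abundant in T cells, rose by 2.33, 2.59 and 2.89 log2 units (0.0131, 0.0119 and 0.00272). Cd44, an adhesion receptor shared by epithelial and immune cells, rose by 1.24, 1.27 and 1.75 log2 units (0.0276, 0.0312 and 0.00355). All 3 genes passed under each alternative in GIF/ATP4B-DTR, and without control 1 none of them passed in the 2 single lines. Ascl2 in ATP4B-DTR was also lost without control 2, Cd44 in ATP4B-DTR without ATP4B-DTR 1, and Cd44 in GIF-DTR without any 1 of its 3 libraries.

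In addition, Sox9 rose by 1.07 ± 0.33 log2 units in ATP4B-DTR, a call lost under 11 of 21 alternatives, among them the omission of either control, ATP4B-DTR 1 or 2, GIF-DTR 2 or GIF/ATP4B-DTR 2. Ccnd1, which encodes cyclin D1, rose by 0.93 ± 0.24 and Myc by 0.65 ± 0.18 log2 units in GIF/ATP4B-DTR (edgeR adjusted p = 0.0121 and 0.0163). Both were lost without control 2, and Myc also without GIF/ATP4B-DTR 3. Myc fell outside the naming rule. Axin2, the most direct readout of beta-catenin in many tissues, was 3.14 ± 2.85 CPM for the controls (n = 2), with line means of 4.23 ± 1.22, 7.96 ± 2.84 and 8.78 ± 3.59 CPM (n = 3 each, ATP4B-DTR first and GIF/ATP4B-DTR last). It did not pass, at 0.44, 1.36 and 1.50 log2 units (edgeR adjusted p = 0.625, 0.146 and 0.0760), and was named after its values were seen. Beside these values, the summed macrophage and monocyte list ran from 18.2 to 86.7 CPM in control, 62.1 to 111 CPM for ATP4B-DTR, 125 to 199 CPM for GIF-DTR and 53.5 to 83.7 CPM for GIF/ATP4B-DTR. Its part in the rise of Cd44 was not tested.

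**Figure D5:**
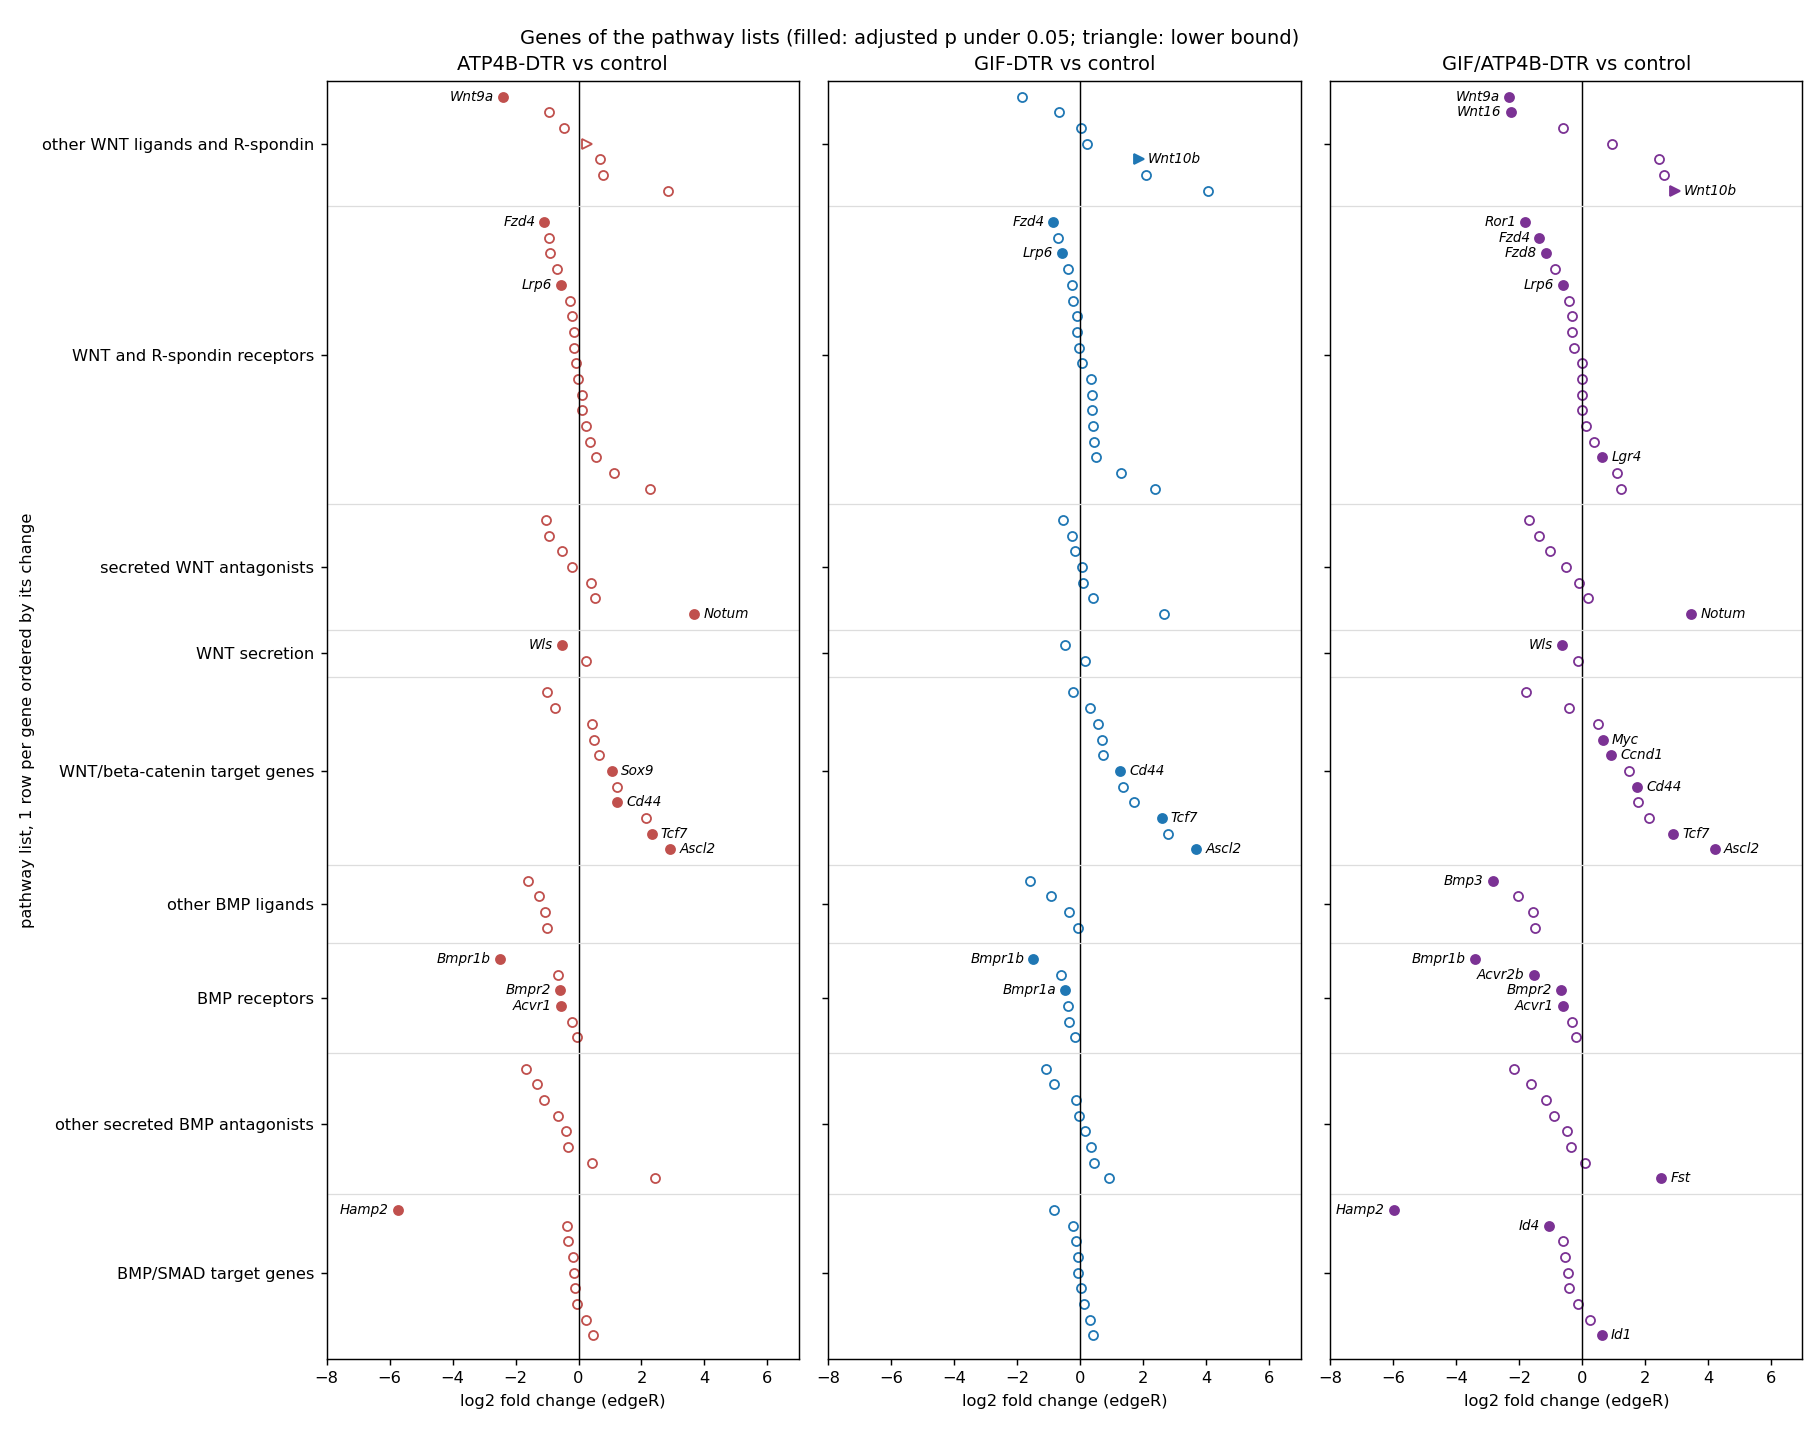
Each row is 1 tested gene of a pathway list, ordered by its log2 fold change against control in that line (horizontal axis). Filled symbols passed an adjusted p of 0.05, open ones did not, and triangles are lower bounds for Wnt10b, which had 0 counts in control. The BMP receptor points lie to the left of 0 in all 3 panels and the filled WNT target points to the right.

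BMP receptors fell where they passed. Of 6 tested, 3 were lower for ATP4B-DTR, 2 for GIF-DTR and 4 for GIF/ATP4B-DTR, with 0 higher, against 9.39, 6.82 and 15.4% of all genes lower. Bmpr1b, a type I receptor, was 32.5 ± 0.197 CPM for the controls (n = 2), with line means of 5.71 ± 1.30, 11.6 ± 1.39 and 3.07 ± 1.18 CPM (n = 3 each, ATP4B-DTR first and GIF/ATP4B-DTR last). It fell by 2.51, 1.49 and 3.41 log2 units (edgeR adjusted p = 0.000336, 0.00572 and 2.73e-05). It was also lower in GIF/ATP4B-DTR than in GIF-DTR, by 1.91 log2 units (0.00294), where these groups also differed in Y-linked reads. With a Y-linked covariate the Bmpr1b difference was as large, at −2.15 ± 0.47 log2 units, and did not pass (edgeR adjusted p = 0.221). The parietal cell list given with Fzd4 had the same order of groups as Bmpr1b, and its part in the Bmpr1b difference was not tested. Bmpr2, the type II receptor of BMP2, BMP4 and BMP7, fell by 0.60 ± 0.13 log2 units in ATP4B-DTR (edgeR adjusted p = 0.00958, lost without control 2) and 0.67 ± 0.13 in GIF/ATP4B-DTR (0.00295, kept under each alternative). Acvr1, another type I receptor, fell by 0.55 ± 0.17 and 0.62 ± 0.17 log2 units in the same lines (0.0362 and 0.0152), and both calls were lost without either control. In ATP4B-DTR the Acvr1 call was also lost without ATP4B-DTR 1, ATP4B-DTR 2 or GIF-DTR 2. Acvr2b fell by 1.54 ± 0.34 log2 units in GIF/ATP4B-DTR (0.00537, kept under each alternative). Bmpr1a fell by 0.49 ± 0.15 log2 units in GIF-DTR (0.0404) and was lost without either control and without ATP4B-DTR 2, GIF-DTR 2, GIF-DTR 3 or GIF/ATP4B-DTR 3.

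Few other BMP ligands and antagonists passed. Of 4 tested ligands, Bmp3 alone passed, falling by 2.84 ± 0.97 log2 units in GIF/ATP4B-DTR (edgeR adjusted p = 0.0446), a call lost under 10 of 20 alternatives, including the omission of control 2, ATP4B-DTR 1 or 3, GIF-DTR 3, or GIF/ATP4B-DTR 1 or 3. Of 8 tested antagonists beside Grem1, Fst, which binds activins and some BMPs, rose by 2.51 ± 0.80 log2 units in GIF/ATP4B-DTR (0.0325), from 1.02 ± 1.06 CPM (n = 2) to 5.76 ± 1.90 CPM (n = 3). It was lost without control 1, GIF/ATP4B-DTR 1 or GIF/ATP4B-DTR 2.

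Among 9 tested BMP/SMAD target genes 1 passed for ATP4B-DTR, 0 for GIF-DTR and 3 for GIF/ATP4B-DTR. These are 11.1, 0 and 33.3% of those tested, close to or below the 21.6, 16.8 and 33.6% of all genes. One of them, Hamp2, fell steeply where parietal cells were targeted. Hamp2, a hepcidin gene whose family is controlled by BMPs in the liver, was 96.8 ± 24.8 CPM for the controls (n = 2), with line means of 1.81 ± 0.237, 54.5 ± 20.1 and 1.52 ± 0.662 CPM (n = 3 each, ATP4B-DTR first and GIF/ATP4B-DTR last). It fell by 5.74 log2 units for ATP4B-DTR and by 5.99 for GIF/ATP4B-DTR (edgeR adjusted p = 6.57e-05 and 9.38e-06). In GIF-DTR it stood at −0.83 log2 units (0.104; without GIF-DTR 1, −1.17 and 0.0289). Hamp2 has a related copy, Hamp, so its level depends on how shared reads were divided. Hamp was tested in the same list and did not pass against control in any line. It stood at −0.32 ± 0.99 log2 units for ATP4B-DTR, −0.06 ± 0.98 for GIF-DTR and −0.60 ± 0.99 for GIF/ATP4B-DTR. The edgeR adjusted p-values of Hamp were 0.841, 0.973 and 0.660. The parietal cell list given above had the same order of groups as Hamp2, and its part in the Hamp2 difference was not tested. Id1 rose by 0.62 ± 0.22 log2 units in GIF/ATP4B-DTR (0.0472), a call lost under 11 of 21 alternatives, among them the omission of control 2, ATP4B-DTR 1, any GIF-DTR library, or GIF/ATP4B-DTR 1 or 3. Id4 fell by 1.05 ± 0.28 log2 units in GIF/ATP4B-DTR (0.0148) and was lost without control 2. Of the 72 tested pathway genes, 0 passed in the interaction and 0 in GIF/ATP4B-DTR against ATP4B-DTR with edgeR, with 10 and 6 at an unadjusted p under 0.05. These are 13.9 and 8.33% of the pathway genes tested, against 15.6 and 10.4% of all genes. With DESeq2, Fzd4 and Lrp6 passed in the interaction. With a Y-linked covariate, which the single lines partly share with genotype, the calls of Acvr1, Lrp6, Notum, Sox9, Wls and Wnt9a in ATP4B-DTR, of Bmpr1a, Bmpr1b, Lrp6, Tcf7 and Wnt10b in GIF-DTR, and of Bmp3 and Id1 in GIF/ATP4B-DTR no longer passed. All 13 kept their direction, at 57.4 to 125% of the log2 difference without the covariate (median 99.6%), with standard errors 1.06 to 1.74 times as large.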

How the data were processed

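Per the labels' protocols, mRNA libraries came from a stranded TruSeq preparation. The deposited table holds expected counts per gene (30.7% of nonzero values are fractional), which were rounded to whole counts. The submitters' processing notes name mm10; the aligner and counter are not given in the sources used here. Symbols were matched for 34582 of 34866 identifiers (99.2%), and positions and lengths came from GENCODE M21 (93.4% of versioned identifiers found). All columns of samples were used (0 left out). Groups follow the genotype label, and replicates of the lines are numbered in accession order.

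All 11 libraries were fitted with 1 coefficient per genotype in edgeR 4.0.16 (R 4.3.3), with TMM scaling, filterByExpr (14889 genes kept) and a robust quasi-likelihood test. P-values were adjusted by Benjamini-Hochberg, called at 0.05. SE is the absolute log2 fold change divided by the square root of F. The common biological coefficient of variation was 26.6%. On simulated counts with 200 genes changed 4-fold, between 80 and 87.5% were recovered and between 4.17 and 6.29% of calls were false. The changed genes were drawn from all tested genes averaging above 1 CPM. The recovered share therefore does not apply to members with a wide spread. In GIF/ATP4B-DTR against control the SE of Rspo3, Bmp4 and Grem1 was 0.92 to 0.93 log2 units. Wnt4, Wnt5a and Grem1 had fractional counts in all 11 libraries, Bmp7 in 9 and Bmp4 in 2, so part of their reads was shared. Antisense genes overlap Wnt5a, Rspo1, Rspo3 and Bmp4, and whether counting used strand is not given in the sources used here. The exact counting intervals of Notum and the floors cover counting error only, and PCR copies are not independent molecules. The approximate 95% intervals come from the edgeR fit and follow the spread between libraries.

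The 10 members, the pathway and marker lists and the tests were chosen with earlier results of these data known. Named pathway genes are those past the threshold, up to 4 per list and comparison by adjusted p, or the 2 most abundant where none passed. For each member the 3 genes with the highest correlation and a mean of at least 8 CPM are named. Gif stands for Cblif in the chief cell list. Alternatives were DESeq2 1.42.0, its size factors, scaling without the 50 most abundant genes, no filter or 10 counts in every library, no robust moderation, only the groups compared, a Y-linked covariate, only libraries without Y-linked reads and leaving out each library. Leaving out control 2 with GIF-DTR 1, and a fibroblast covariate, with Fbln1 and, for the members, without it, were added after the data were seen.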

Additional observations from a re-analysis of the deposited data

Results flagged for a closer look

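A tested difference between lines was found for 3 pathway genes. In GIF-DTR against ATP4B-DTR 1.39% of the 72 tested pathway genes passed, beside 0.49% of all genes. In GIF/ATP4B-DTR against GIF-DTR 4.17% passed, beside 2.53% of all genes. Hamp2 differed by 4.91 log2 units for GIF-DTR against ATP4B-DTR and by −5.16 for GIF/ATP4B-DTR against GIF-DTR (edgeR adjusted p = 0.000259 and 8.12e-05). Both held under every alternative tried, including a Y-linked covariate. Y-linked reads varied within the ATP4B-DTR group only. For GIF/ATP4B-DTR against GIF-DTR that covariate therefore cannot tell genotype from the difference in Y-linked reads. Bmpr1b was lower in GIF/ATP4B-DTR than in GIF-DTR, at −1.91 log2 units (edgeR adjusted p = 0.00294), and no longer passed with a Y-linked covariate alone, where it stood at −2.15 ± 0.47 log2 units (edgeR adjusted p = 0.221). Fzd4 was lower in the same comparison, at −0.50 log2 units (edgeR adjusted p = 0.0356), and was lost under 10 of 21 alternatives (adjusted p up to 0.727), among them the omission of ATP4B-DTR 2, GIF-DTR 1, GIF-DTR 2 or any GIF/ATP4B-DTR library. Each group had 3 libraries, and none of the 10 ligand and antagonist genes was among these results.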

How the results depend on the processing

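The count of 0 called members was kept under every alternative in the comparisons between lines and in the interaction. It became 1 in ATP4B-DTR against control (Bmp7) without GIF/ATP4B-DTR 2 and with the fibroblast covariate, and 1 in GIF-DTR against control (Rspo3) with that covariate. With Fbln1 taken out of the covariate it was 2 in ATP4B-DTR (Rspo3 and Bmp7) and 1, Rspo3, in each of the other lines. In GIF/ATP4B-DTR against control it ran from 0 to 2 when single libraries were left out, with 2 (Bmp4 and Wnt2b) without control 1 and 1 (Bmp7) without GIF/ATP4B-DTR 2. For leaving out a library the cause was not tested. Of 1379 member values under alternatives, 154 had the opposite sign to the main value with neither past the threshold, and 10 newly passed it. Of 3478 values of named pathway genes, 143 lost and 33 gained the threshold, and 91 changed sign without passing. Counts of the pathway lists moved by over 1.5 times in 119 of 1323 values. Among those printed above, the WNT target count ran from 1 to 6 in ATP4B-DTR, 0 to 6 in GIF-DTR and 4 to 7 in GIF/ATP4B-DTR, and the BMP receptor count from 1 to 3, 0 to 3 and 3 to 4. The 2 controls limit every comparison against control: a lone remaining control was assumed to vary like the other groups. Depth limits Rspo2, Wnt2b and Wnt10b. No paired analysis was possible because replicate numbers of the lines come from accession order and pair no libraries.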
